A study of Margaritifera margaritifera with 32 samples.

Results

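Kidney transcripts of freshwater pearl mussels (Margaritifera margaritifera) taken below a dump on the Dronne River in March 2010 were compared with those of animals taken at the same place in April 2009. The comparison covered 16 of the 32 libraries of the series, chosen by their site and year labels, with 8 animals in each year and 1 library per animal. The other 16 libraries came from animals taken above the dump, 8 in each year, and shared the model that set the spread. All were wild animals of different individuals in each year, and trace metal contamination is the subject the series names. The downstream animals of 2009 comprised 0 young, 1 middle-aged and 7 old mussels, and those of 2010 comprised 3 young, 3 middle-aged and 2 old ones. Upstream, the classes held 3, 4 and 1 animals in 2009 and 4, 3 and 1 in 2010. Sex, size and river conditions were not among the labels used here. Each year had its own month of sampling, its own index sequences and its own range of library numbers. An effect of any of these cannot be told apart from that of year. The 4 sequencing lanes each held 2 downstream libraries of each year.

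The bivalve kidney receives filtered haemolymph, reabsorbs from it, and stores metals in granules within its cells. Transcripts of a whole organ depend on the state of its cells and on which cells it holds, so that fewer cells of a type and less RNA per cell cannot be told apart in these libraries. Freshwater pearl mussels live for many decades, so animals of one river bed can differ widely in age. Contigs are assembled transcripts; a name given to one states its best match in another species, and the roles given here are those known from well-studied animals, mostly vertebrates and flies.

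Of 51264 contigs tested, 7203 were higher in 2010 (14.1%) and 7022 were lower (13.7%), by edgeR's quasi-likelihood test with a threshold of 0.05 on p-values adjusted after Benjamini and Hochberg. The median change among those called was 1.01 for the higher and -1.02 for the lower contigs, in log2 units of 2010 over 2009. The directions were divided by the kind of name a contig carried. Among contigs with only a running number, 5681 of 31348 were higher and 1986 lower. Among contigs with a gene or protein name, 53 of 1403 were higher (3.78%) and 515 lower (36.7%), with a median change of -0.60 over all of them. Contigs with a LOC number had 1284 higher and 3808 lower of 15580, and contigs with another locus tag had 185 higher and 713 lower of 2933.

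**Figure D1:**
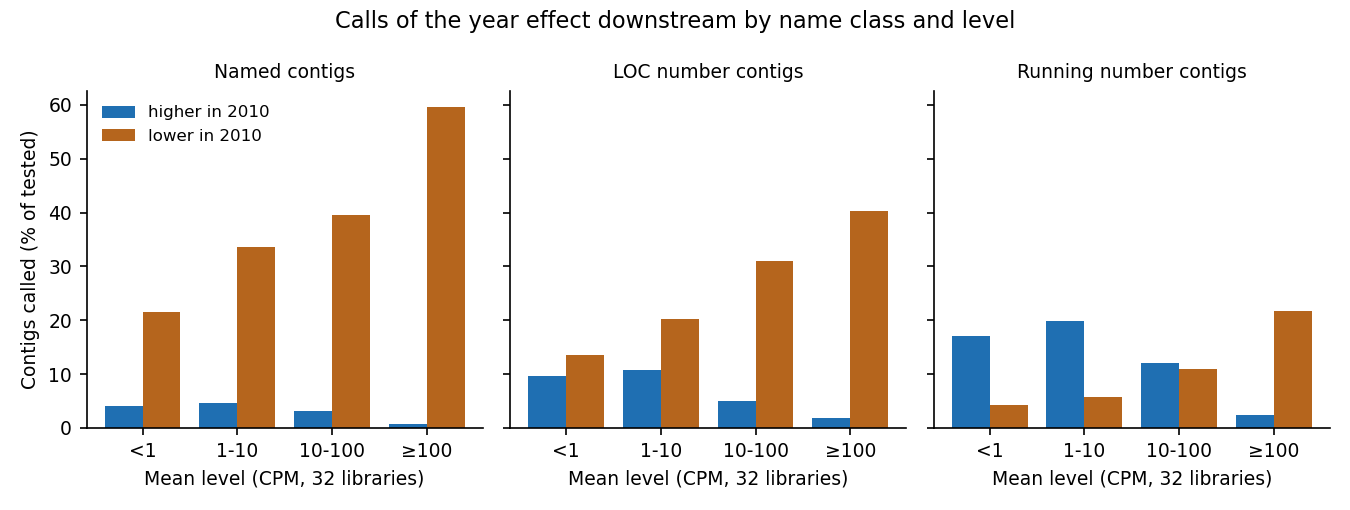
Share of tested contigs called higher (blue) or lower (brown) in 2010 downstream, in percent, against the mean level over the 32 libraries in CPM, the count per 1e+06 counts of the library after TMM scaling, for 3 kinds of contig name. Of the named contigs with a mean of at least 100 CPM 59.7% were called lower, and of the numbered contigs from 1 to 10 CPM 19.8% were called higher.

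Level was tied to direction as well. Of the 1033 contigs with a mean of at least 100 CPM (counts scaled by TMM library size, CPM), 18 were higher in 2010 and 393 lower. Of the 6404 contigs under 1 CPM, 982 were higher and 405 lower. TMM factors are edgeR's correction for libraries in which a few abundant transcripts take a large share of the counts. With the library totals alone as the scale, the median of all contigs moved from -0.02 to 0.47, and the calls became 13186 higher and 1253 lower, so that 91.3% of calls were higher in place of 50.6%. Named contigs then had a median of -0.03, which is again below the median of all contigs. A change is therefore a change relative to the bulk of the transcripts in a library.

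A part of the result could be read from the libraries without any test by contig. Contigs with a running number took 30.0 ± 3.16% of the counts in 2009 and 35.4 ± 1.64% in 2010 (SD, n = 8 per year; exact permutation test, two-sided, p adjusted over 9 measures of 0.0028). The adjusted p was 0.012 without replicates 7 and 8 of 2009. Named contigs took 12.1 ± 4.03% and 8.48 ± 1.11%, with an adjusted p of 0.0199 by the same exact test and of 0.0683 without those replicates. TMM factors averaged 0.882 ± 0.241 in 2009 and 1.25 ± 0.0850 in 2010 (exact permutation, adjusted p of 0.0028). Total counts ran from 55.7 to 104.6 M (1e+06 counts) in 2009 and from 69.0 to 190 M in 2010 (exact permutation, adjusted p of 0.247).

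**Figure D2:**
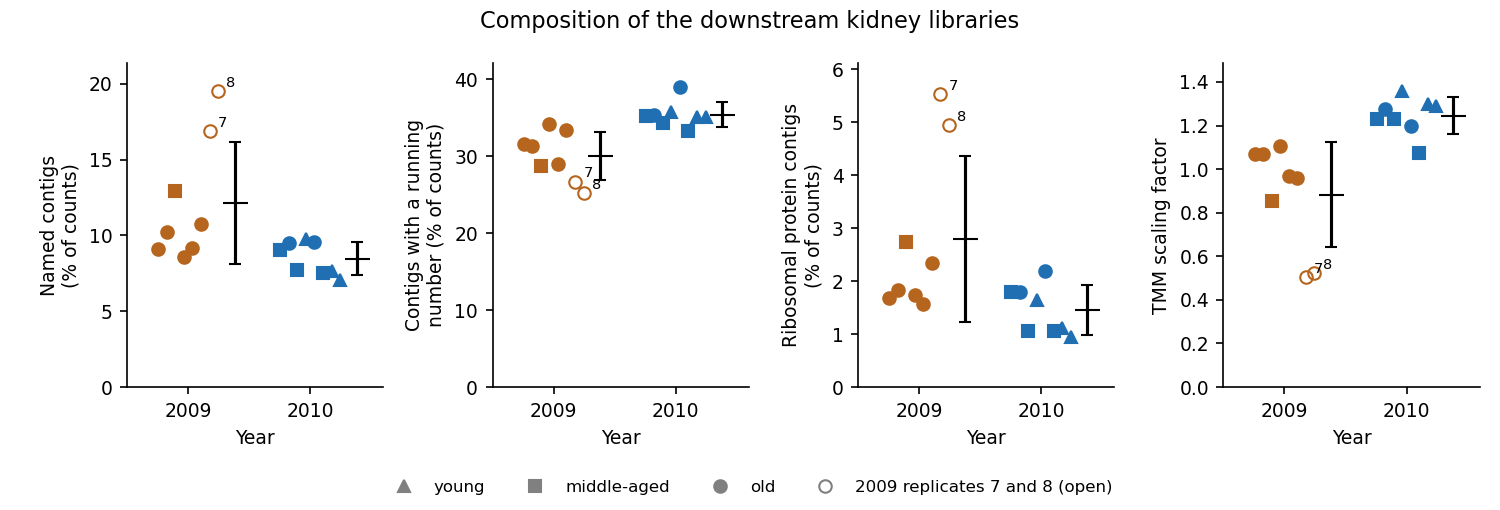
Composition of the 16 downstream libraries by year: percent of counts in named, numbered and ribosomal protein contigs, and the TMM factor (no unit). Each point is 1 animal, with age class by shape; bars are the mean ± SD over 8 animals. The open points are 2009 replicates 7 and 8, with 16.9% and 19.5% of counts in named contigs against 8.58 to 12.9% in replicates 1 to 6.

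Replicates 7 and 8 of 2009, both old animals sequenced in lane 2, stood apart from the other downstream libraries. Their TMM factors were 0.503 and 0.524, against 0.856 to 1.11 in the other 6 downstream animals of that year. Contigs named for ribosomal proteins took 5.53% and 4.95% of their counts, against 1.57 to 2.73% in replicates 1 to 6 and 0.938 to 2.20% in 2010. Replicate 8 had 37996 contigs at 1 CPM or more, against 40741 in replicate 7 and 41179 to 44251 in the other 14 downstream libraries. Upstream, 2009 replicates 2 (old), 3 and 4 (middle-aged) had TMM factors of 0.767, 0.667 and 0.601 and ribosomal shares of 3.39, 3.20 and 3.44%. Upstream 2009 replicate 7, a young animal in lane 2, had 0.607 and 1.55%. The other upstream libraries of 2009 had factors of 0.982 to 1.25. For the lists of contigs below, the counts without the pair of downstream 2009 replicates 7 and 8 are given as well.

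Several of the named contigs that rose act in the processing of RNA. Ddx17, a DEAD-box RNA helicase, had a lowest, median and highest level of 15.7, 31.2 and 44.6 CPM in 2009 and of 34.4, 84.8 and 115 CPM in 2010. Its lowest animal of 2010, an old one, lay within the range of 2009. The related helicase DDX5.1.2 went from 81.4, 96.8 and 144 CPM to 114, 145 and 163 CPM, and rose by 0.50 ± 0.14 (SE, n = 8 per year; edgeR adjusted p of 0.00682). The splicing factor SRSF4 had 4.43, 8.67 and 9.46 CPM in 2009 and 6.67, 16.5 and 24.7 CPM in 2010, a change of 1.12 ± 0.21 with an edgeR adjusted p of 0.000312. The U2 snRNP-associated protein u2surp went from 0.522, 2.49 and 4.67 CPM to 2.35, 9.34 and 13.5 CPM and rose by 1.88 ± 0.36 (edgeR adjusted p of 0.000361). In all 4 the ranges of the years overlapped. The list of RNA helicases and splicing proteins did not rise as a whole: 5 of its 31 contigs were higher and 11 lower (35.5%, near the 36.7% of all named contigs), with a median of -0.49, which turned to 0.05 with library totals alone. Without replicates 7 and 8 of 2009 the list had 4 higher and 5 lower, with a median of -0.26.

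Inhibitors of apoptosis bind caspases, the proteases that carry out cell death, or act in immune signalling. XIAP.5.6 had 1.85, 3.07 and 3.82 CPM in 2009 and 5.49, 9.04 and 11.2 CPM in 2010. Xiap had 0.924, 1.74 and 2.39 CPM in 2009 and 3.60, 4.63 and 6.66 CPM in 2010, and rose by 1.54 ± 0.22 (edgeR adjusted p of 2.12e-05). In both contigs every animal of 2010 was above every animal of 2009. Over all contigs such a separation held for 1712 contigs in the higher direction (3.34%) and 869 in the lower (1.7%). NAIP, named for a family member that also senses bacterial proteins in mammals, had 0.809, 1.34 and 3.63 CPM and then 3.02, 3.75 and 4.57 CPM, with the highest animal of 2009, replicate 8, inside the range of 2010. Its change was 1.26 ± 0.23 (edgeR adjusted p of 0.00025) and 1.60 without replicates 7 and 8. These 3 were the only members of 24 that were higher (12.5%, against 3.78% of all named contigs). Lower were 5 members (20.8%, against 36.7%), or 4 without the pair. Of the 5, BIRC2 had the smallest p, with a change of -1.80 ± 0.38 (edgeR adjusted p of 0.000899). Its edgeR adjusted p was 0.0139 without the pair and 0.0125 with an age term. DIAP2.3.3 changed by -0.54 ± 0.13 (edgeR adjusted p of 0.00319, 0.0133 without the pair and 0.0431 with an age term). Of the 5, XIAP.6.6 (-0.56) and XIAP.4.6 (-0.88) carry the name XIAP too (edgeR adjusted p of 0.0219 and 0.045, and of 0.125 and 0.473 without the pair). The list's median was -0.40 (0.12 with library totals alone).

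Names of mobile elements formed 1 of the 2 lists in which more contigs rose than fell, the other being ABC transporters. Of 24 contigs named for viruses or mobile elements, 9 were higher (37.5%) and 2 lower (8.33%), with a median of 0.46. The share higher was 3.78% among all named contigs, 18.1% among numbered contigs and 14.1% among all contigs. All 9 higher contigs of the list carried the names pogk, POGK, LIN1 or LORF2. The contig pogk.7.8, named for a protein derived from a pogo transposase, had 5.20, 9.89 and 11.4 CPM in 2009 and 16.7, 24.4 and 32.8 CPM in 2010. It rose by 1.43 ± 0.21 (edgeR adjusted p of 2.49e-05), and the years did not overlap. LIN1.1.2, named for a LINE-1 reverse transcriptase, had 0.880, 2.92 and 3.94 CPM and then 5.47, 6.87 and 8.82 CPM, again with no overlap, and rose by 1.37 ± 0.25 (edgeR adjusted p of 0.000199). The same 9 to 2 split became 9 to 3 without replicates 7 and 8, 7 to 2 with an age term and 9 to 4 with both. Contigs of one such name may be copies of one repeat, and reads may be split between them.

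Further named contigs that rose act in metabolism and transport. SQRDL, the mitochondrial enzyme that oxidises hydrogen sulfide, had 20.1, 29.2 and 45.7 CPM in 2009 and 41.0, 51.7 and 80.8 CPM in 2010 and rose by 0.89 ± 0.20 (edgeR adjusted p of 0.0014). ARG1, arginase, which splits arginine into urea and ornithine, had 0.569, 2.66 and 3.11 CPM and then 0.822, 10.8 and 23.8 CPM. The change of ARG1 was 2.37 ± 0.62 (edgeR adjusted p of 0.00484), and the animals of 2010 spread widely, with a young one at 0.822 CPM and the other young ones at 23.8 and 22.4 CPM. Odc.1.6, named for ornithine decarboxylase, the enzyme that turns ornithine into putrescine, had 2.54, 3.35 and 8.17 CPM and then 6.65, 8.23 and 15.1 CPM. Its change was 1.07 ± 0.29 (edgeR adjusted p of 0.0061) and 1.47 without replicates 7 and 8, which held the highest levels of 2009.

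MRP3.1.2, named for an ABC transporter that exports organic anion conjugates, had 1.14, 5.19 and 9.19 CPM in 2009 and 8.29, 13.0 and 18.9 CPM in 2010 and rose by 1.26 ± 0.28 (edgeR adjusted p of 0.00157). MRP4, of the same family, rose by 0.78 ± 0.28 (edgeR adjusted p of 0.0364) and had an adjusted p of 0.066 without replicates 7 and 8 and of 0.407 with an age term; it was called in 25 of the 32 fits that each left out 1 library. Of the 5 ABC transporters these 2 were called, and 1 without the pair, and the median of 0.65 became -0.29 with an age term. The zinc finger protein znf318 had 22.1, 25.5 and 31.7 CPM and then 35.2, 48.8 and 60.1 CPM without overlap, a rise of 0.89 ± 0.14 (edgeR adjusted p of 5.04e-05). The other names of the 15 with the smallest p were TRMT44.2.2, a tRNA methyltransferase, JOS1, a deubiquitinase, and CCDC57, a coiled-coil protein. JOS1 rose by 0.44 ± 0.11 and CCDC57 by 1.01 ± 0.26.

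**Figure D3:**
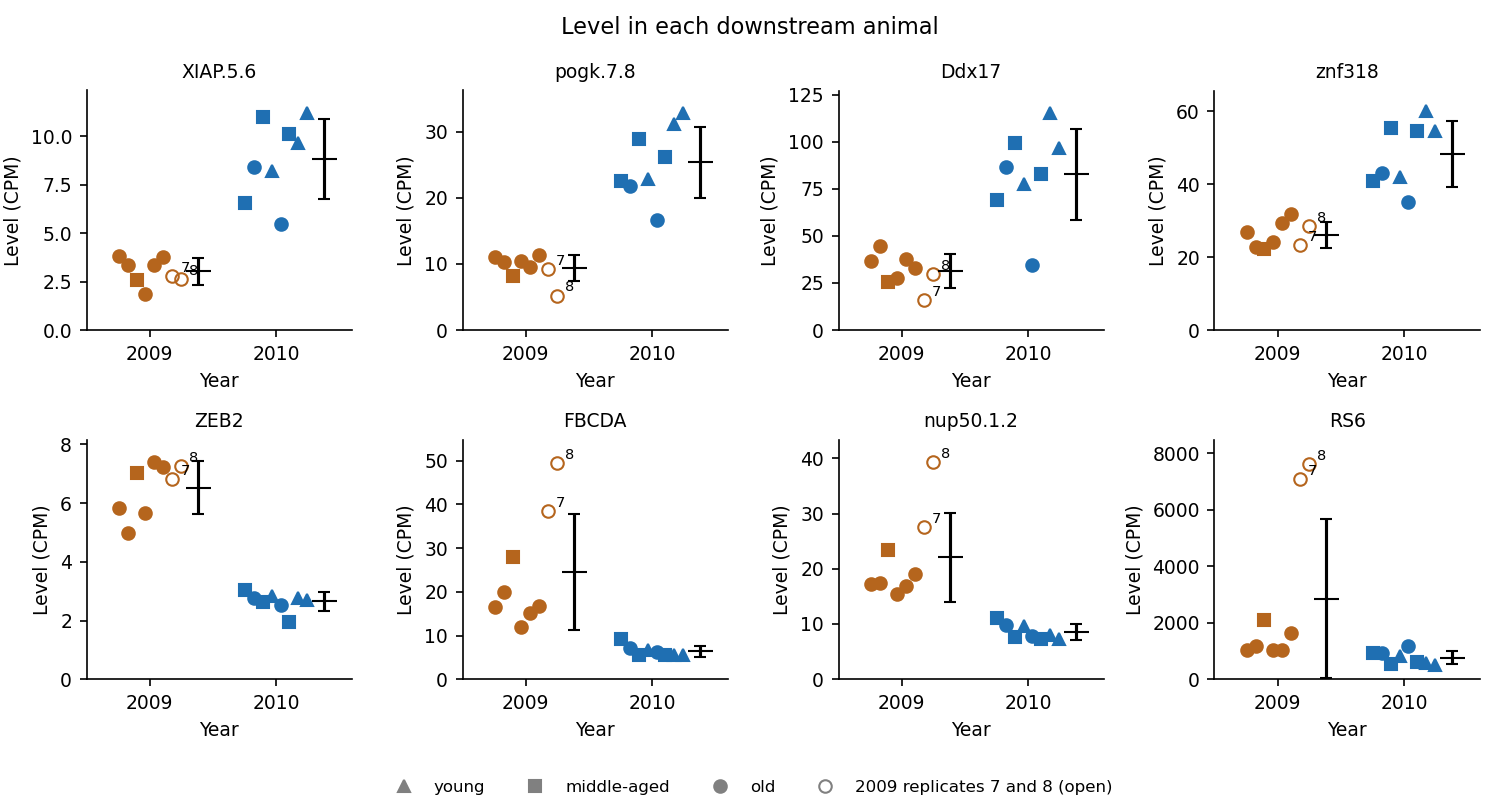
Level in CPM of 8 named contigs in each downstream animal by year, with age class by shape and the mean ± SD over 8 animals. The years did not overlap for XIAP.5.6, pogk.7.8, znf318, ZEB2, FBCDA and nup50.1.2; for RS6 the open points, 2009 replicates 7 and 8, stand far above the rest.

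Zinc finger proteins were the largest list of named contigs. Of 88 contigs, 59 were lower in 2010 (67.0%) and 3 higher, with a median of -0.89 (-0.34 with library totals alone, where the median of all contigs was 0.47). ZEB2, a zinc finger repressor of transcription, had 4.99, 6.91 and 7.39 CPM in 2009 and 1.96, 2.74 and 3.04 CPM in 2010. It fell by 1.30 with a standard error of 0.14 (edgeR adjusted p of 1.12e-06), with no overlap and with replicates 7 and 8 at 6.82 and 7.27 CPM amid the other animals of 2009. ZN492.4.4 had 4.34, 6.71 and 11.5 CPM and then 2.14, 2.63 and 3.86 CPM, a change of -1.35 ± 0.22 (edgeR adjusted p of 7.21e-05). ZN420 and ZN429 had changes of -0.95 ± 0.16 and -0.98 ± 0.19, and in both the years did not overlap. Without replicates 7 and 8 the list had 55 lower and 5 higher, with an age term 41 and 1, and with both 37 and 2. All 1403 named contigs had 281 lower and 52 higher, 294 and 26, and 222 and 37 in the same fits. The single names are those of multigene families, so reads may be shared among near-identical copies. Upstream, 36 of the 88 were lower in 2010 and 1 higher, against 120 lower and 10 higher of all 1403 named contigs.

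Immune genes that fell included pattern receptors and caspases, while contigs named for the adaptor MyD88 changed in both directions. FBCDA, named for a fibrinogen-domain receptor, had 11.9, 18.4 and 49.5 CPM in 2009 and 5.46, 5.94 and 9.11 CPM in 2010, with no overlap. MyD88 is the adaptor that passes signals on from Toll-like receptors: myd88 had 4.41, 6.37 and 8.70 CPM and then 2.58, 3.39 and 4.70 CPM, a change of -0.86 ± 0.18 (edgeR adjusted p of 0.00063). Of the other MyD88 contigs, Myd88-2.2.3 and MY88A were lower too (-1.29 and -0.86), and MYD88 and Myd88-2.3.3 did not pass (-0.49 and 0.12). MY88A had an edgeR adjusted p of 0.00944, of 0.0029 without replicates 7 and 8 and of 0.0261 with an age term. Myd88-2.1.3, the most abundant MyD88 contig in 2010, rose by 1.20 ± 0.38 from a mean of 14.0 to 32.2 CPM (edgeR adjusted p of 0.0189, or 0.348 with an age term). The counts below stand beside those of all 1403 named contigs. Of these, 515 were lower (36.7%), 281 without replicates 7 and 8 and 294 with an age term. Of 27 contigs for immune recognition, 13 were lower and Myd88-2.1.3 alone was higher, and 8 were lower without replicates 7 and 8. Of 16 caspases, 12 were lower and 0 higher, 7 lower without that pair and 3 with an age term. Of 13 antiviral genes, 8 were lower and 1 higher, 4 and 0 without that pair, and 2 and 0 with an age term. Haemocyte markers, of which immune recognition names make up a part, fell in 9 of 14 contigs, or in 2 without replicates 7 and 8. Their part in the immune results was not tested.

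Some of the single contigs that were lower serve transcription, transport through the nuclear pore and the modification of tRNAs. RPB7, a subunit of RNA polymerase II, had 12.6, 16.9 and 31.6 CPM in 2009 and 6.20, 7.62 and 10.7 CPM in 2010 and changed by -1.27 ± 0.24. RPA34, a subunit of RNA polymerase I, changed by -1.45 ± 0.28, or by -0.94 without replicates 7 and 8. The nuclear pore protein nup50.1.2 had 15.4, 18.3 and 39.3 CPM and then 7.30, 7.92 and 11.0 CPM, a change of -1.36 ± 0.22. CDK5RAP1, which modifies mitochondrial tRNAs, changed by -1.07 ± 0.18 and was called in all 16 alternatives and in the 32 fits that each left out 1 library. In these 4 contigs every animal of 2010 was below every animal of 2009. Of 37 tRNA synthetases and tRNA modifying enzymes 15 were lower and 1 higher, and 8 and 2 without replicates 7 and 8. The share lower, 40.5%, was near that of all named contigs, 36.7%, and the median of -0.39 (0.16 with library totals alone) was above theirs of -0.60.

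The phosphatase subunit ppp1r15b, which counters the phosphorylation of the translation factor eIF2-alpha, had 4.42, 5.07 and 7.72 CPM in 2009 and 2.89, 3.08 and 3.93 CPM in 2010. Its change was -0.82 ± 0.13 (edgeR adjusted p of 4.83e-05), the years did not overlap, and it was -0.83 without the pair. RRAGA, a Rag GTPase that signals amino acid supply to mTORC1, had 22.0, 24.8 and 37.2 CPM and then 13.5, 14.5 and 18.5 CPM, a change of -0.81 ± 0.15 (edgeR adjusted p of 0.000224). ES1, a mitochondrial protein, had 7.74, 15.2 and 33.1 CPM and then 2.85, 5.22 and 7.33 CPM, a change of -1.76 ± 0.26 (edgeR adjusted p of 2.34e-05). It was -1.88 without the pair and -2.05 with an age term. Also among the 15 lower names were naxd.1.2, which repairs hydrated NADH (-1.37 ± 0.26), and ERI3, an exoribonuclease (-1.09 ± 0.20). Of the 4 contigs without a gene name shown here, contig_19479 rose from a median of 8.56 to 27.5 CPM and contig_15576 from 2.06 to 11.8 CPM. LOC105341999.2.2 fell from a median of 17.6 to 6.69 CPM and contig_11006 from 47.2 to 16.2 CPM. All 4 separated the years and were called in every alternative.

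**Figure D4:**
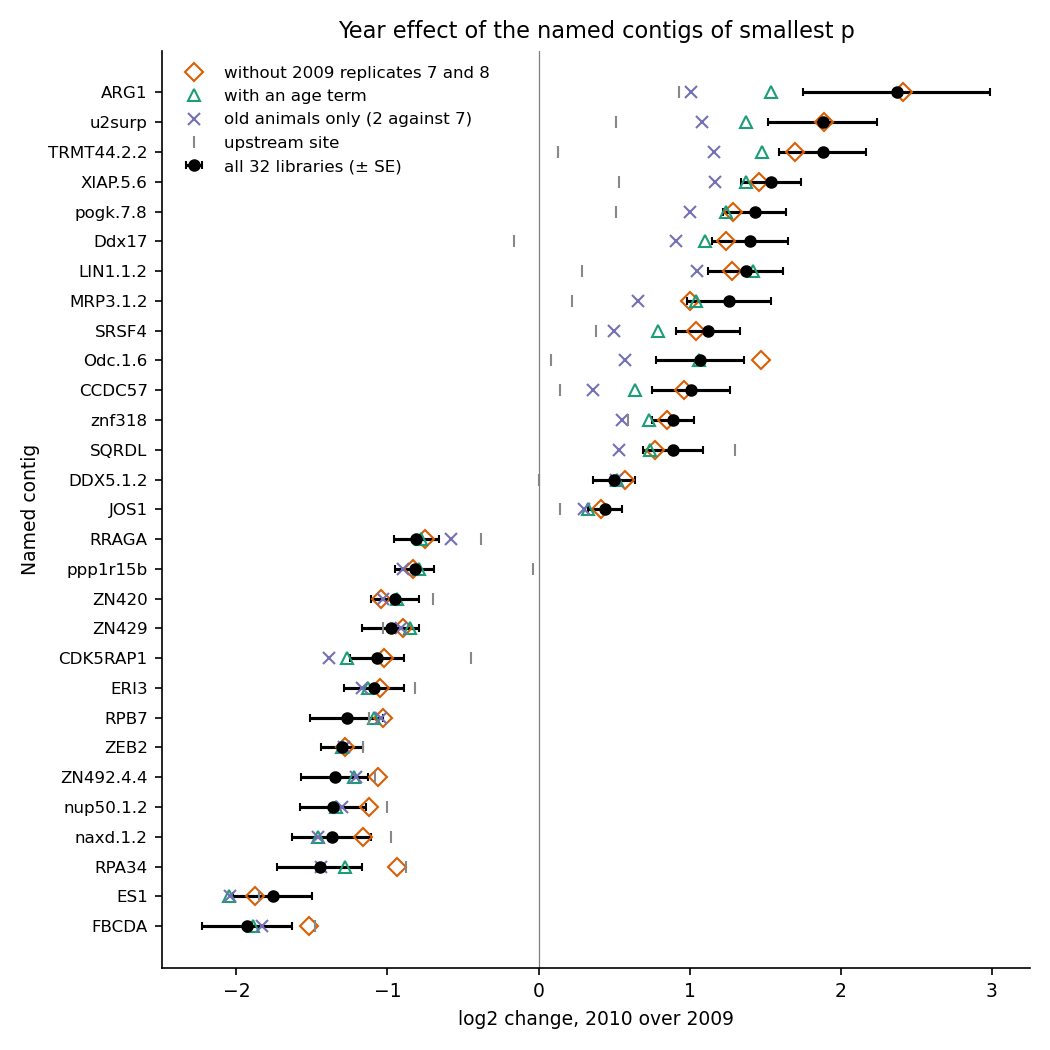
Change in 2010 over 2009 (log2) of 29 of the 30 named contigs of smallest p, as fitted on all 32 libraries (black, ± SE), without 2009 replicates 7 and 8, with an age term, among old animals (2 against 7), and upstream. All 30 had an adjusted p under 0.05 without the pair, 27 with an age term and 4 among old animals.

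The lists of the most abundant transcripts behaved otherwise. Of 39 cytosolic ribosomal protein contigs 0 were higher, and the count of lower ones went from 31 to 0 without replicates 7 and 8, with medians of -1.76 and -0.78; with an age term it was 16. At an unadjusted p under 0.05 edgeR still had 19 lower and 0 higher without the pair, and on all libraries DESeq2 called 30 lower and limma-voom 28. Both of these animals were above all 6 others of 2009 in 32 of the 39. RS6 had 1030, 1394 and 7615 CPM in 2009 and 492, 707 and 1177 CPM in 2010, so that the years overlapped although the fitted change was -1.90. Of 12 actins 8 were lower, then 0 by edgeR without the pair, with 1 at an unadjusted p under 0.05, and 1 with an age term. Of 21 tubulins 9 were lower, then 1 and 3. ACT2 had 1936, 5224 and 24950 CPM and then 914, 2295 and 3678 CPM, and its adjusted p by edgeR went from 0.00867 to 0.181 without the pair. Of 7 ATP synthase contigs 5 were lower, then 0 by edgeR without the pair, with 4 at an unadjusted p under 0.05. The 8 lower of 14 translation factors became 2, and the 14 lower of 26 ubiquitin and proteasome contigs became 7. The elongation factor EF1A.2.2 had 4537, 5599 and 22940 CPM and then 2608, 3448 and 4410 CPM.

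Ferritin stores iron and gave the most abundant metal-handling contigs. FRIS.1.2 had 6369, 12350 and 47670 CPM in 2009 and 6499, 7180 and 10950 CPM in 2010, a change of -1.39 ± 0.38 (edgeR adjusted p of 0.00681) that was -0.66 without replicates 7 and 8 (edgeR adjusted p of 0.138). The 5 lower of 11 metal-handling contigs became 2. Of the 26 contigs for glutathione, thioredoxin and superoxide dismutase 10 were lower and 0 higher, and 8 were lower both without the pair and with an age term. Their share of 38.5% and median of -0.68 were near those of all named contigs, 36.7% and -0.60. GLO1.1.2, named for glyoxalase, which uses glutathione to detoxify methylglyoxal, had 20.7, 25.7 and 52.2 CPM and then 8.92, 13.4 and 18.9 CPM. It changed by -1.16 ± 0.26 with and by -1.16 without the pair, and the years did not overlap. Of 5 cytochrome P450 contigs and 4 carbonic anhydrases 0 were called by edgeR, with medians of 0.06 and -0.22 (0.58 and 0.27 with library totals alone). With an age term the medians were -0.53 and -0.59, and without the pair as well -0.63 and -0.73. At an unadjusted p under 0.05 there were 0 too and DESeq2 called 0, while limma-voom and edgeR with library totals alone each called 1 cytochrome P450 contig higher.

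**Figure D5:**
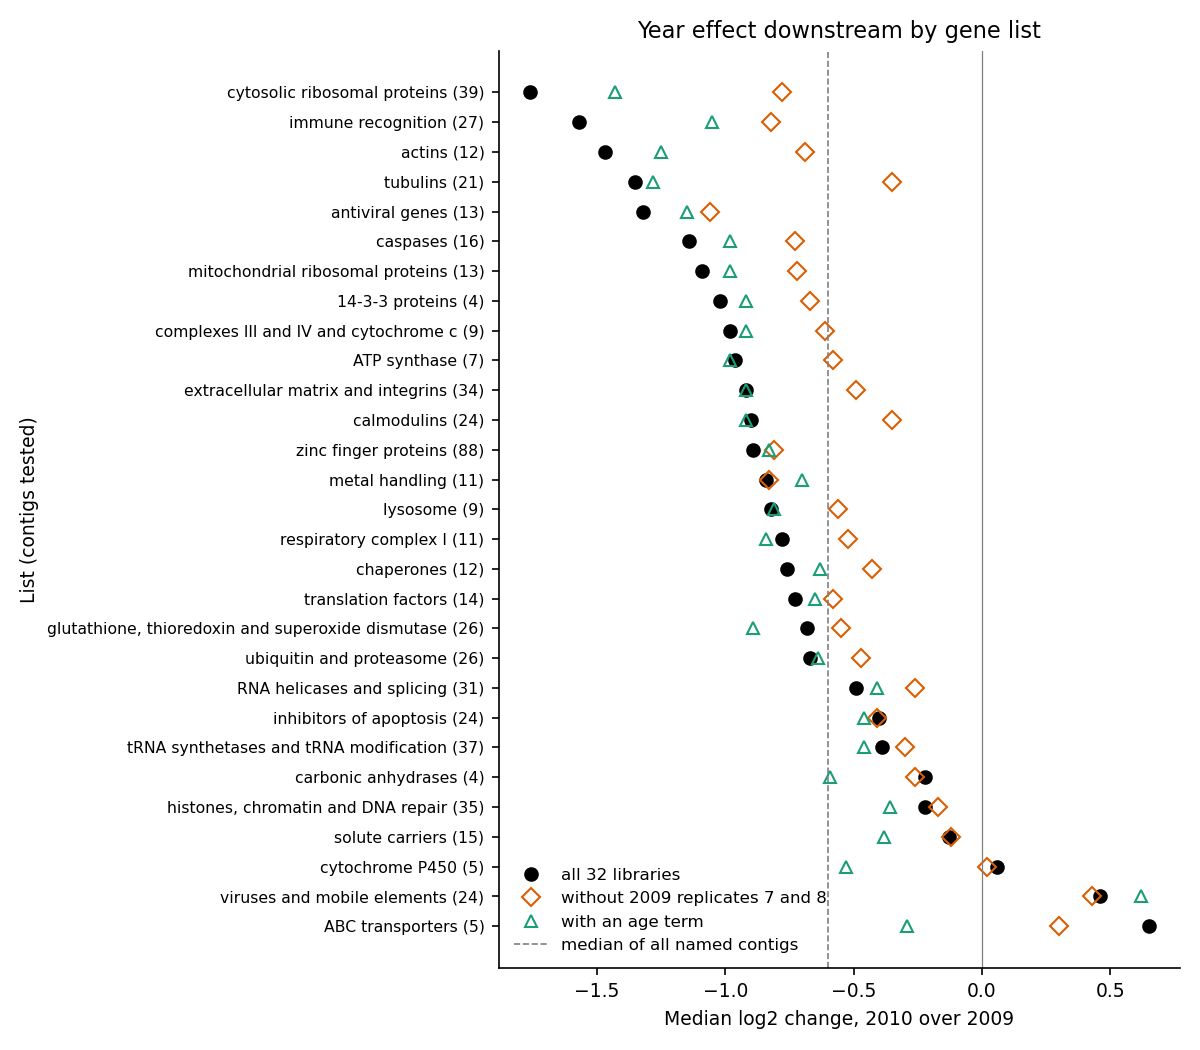
Median change in 2010 over 2009 (log2) of 29 lists of named contigs, with the number of contigs tested in brackets, on all 32 libraries, without 2009 replicates 7 and 8, and with an age term; the dashed line is the median of all named contigs, -0.60. The median of cytosolic ribosomal proteins was -1.76 with the pair and -0.78 without, and that of zinc finger proteins -0.89 and -0.81. With library totals alone as the scale, the medians of tRNA enzymes, RNA helicases and splicing, histones, inhibitors of apoptosis, carbonic anhydrases and solute carriers were above 0.

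Without replicates 7 and 8 of 2009, 6285 contigs were higher (12.2%) and 4407 lower (8.59%) of 51311 tested. The calls kept were 5515 of the 7203 higher (76.6%) and 3477 of the 7022 lower (49.5%), and none was called in the opposite direction. Lower calls thus lost more than higher ones. Both animals lay above all of replicates 1 to 6 in 3498 of the lower contigs (49.8%), and in 8822 of all 51264 (17.2%). They lay below all of them in 2368 of the higher contigs (32.9%), and in 21.5% of all contigs. Against replicates 1 to 6 alone the median log2 ratio of the 2010 mean was 0.74 for the higher and -0.63 for the lower contigs. Against the pair it was 1.15 and -1.46. All of these animals also made the calls, so the shares and ratios in the called contigs are in part set by that choice. Of the named contigs, 281 of 1403 were lower without the pair in place of 515, while 52 were higher in place of 53. The drop was steepest at high levels, where 17 of the 129 named contigs of at least 100 CPM were lower in place of 77. The pair shared age class and lane with each other, and the fit without all of lane 2 gave 4544 higher and 2061 lower contigs.

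The highest sums of muscle and haemocyte markers in 2009 were in 1 of the pair. The summed level of 16 muscle contigs ran from 520 to 6060 CPM in 2009, with 2460 CPM as the highest of replicates 1 to 6, and from 375 to 1550 CPM in 2010. The sum of 14 haemocyte contigs ran from 111 to 1130 CPM, with 534 CPM as the highest of replicates 1 to 6, and from 55.4 to 198 CPM in 2010; 2 of these contigs were at 0 in at least 1 downstream library. Of the muscle contigs 2 were lower in 2010, and 0 without the pair. With an age term 5 were lower, and 1 with an age term and without the pair. On all libraries 11 muscle contigs were lower at an unadjusted p under 0.05 by edgeR, and DESeq2 called 9 lower and limma-voom 3. Sums of 6 cilia contigs ran from 27.4 to 126 CPM, with 83 CPM as the highest of replicates 1 to 6, and from 23.7 to 106 CPM, with 1 called lower and 0 without the pair. Sums of 5 digestive gland contigs ran from 24.9 to 75.5 CPM, with 42.9 CPM as the highest of replicates 1 to 6, and from 13.0 to 67.1 CPM, with 2 called lower and 1 without the pair. The highest sum of 2 gonad contigs in 2009, 75.5 CPM, was in one of replicates 1 to 6. Of these contigs edgeR called 0, at an unadjusted p under 0.05 as well, DESeq2 0 and limma-voom 2 lower. As a check of the tissue, 5 contigs of 4 kidney names were followed, of which 3 were lower (FRIS.1.2, FRIS.2.2 and slc3a1), with a median of -1.34, and 0 without the pair, with a median of -0.61. FRIS.2.2 changed by -1.54 ± 0.41 and slc3a1, named for a subunit of an amino acid transporter, by -1.34 ± 0.37 (edgeR adjusted p of 0.00525 and 0.0079). The other 2, LRP2 and CUBN, receptors of reabsorbing kidney cells in vertebrates, had 11.5 ± 10.2 and 6.19 ± 5.41 CPM in 2009 and 11.3 ± 19.7 and 3.50 ± 2.08 CPM in 2010. The part of these cells in the result was not tested.

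Age class was the second limit, since 7 animals of 2009 and 2 of 2010 were old and young animals were sampled downstream in 2010 only. With age class as a term over the 32 libraries, 4507 contigs were higher (8.79%) and 3791 lower (7.4%), and 55.3% and 46.3% of the calls were kept, with no contig called in the opposite direction. The median change of the contigs called without the term went from 1.01 to 0.90 and from -1.02 to -0.95, while the median standard error over all contigs went from 0.298 to 0.341. With the age term and without replicates 7 and 8 there were 5567 higher (10.8%) and 4085 lower contigs (7.96%). Among old animals alone, 2 against 7, edgeR called 373 higher and 73 lower, with a median standard error of 0.467. Of the contigs called on all animals, 98.5% of the higher ones and 99.6% of the lower ones kept their direction in the ratio of old to old means, with medians of 0.57 and -0.80. Without the pair, 2 against 5, the shares were 93.9% and 86.1% and the medians 0.49 and -0.42. These shares use animals that also made the calls.

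Within 2010, the means of the young and old animals differed along the same contigs. The ratio of the means of 3 young to 2 old animals had a median log2 of 0.37 over the contigs higher in 2010 and of -0.25 over those lower, and was above 0 in 80.1% of the first and below 0 in 71.8% of the second. Over all contigs its median was 0.03. The 2 old animals were replicates 2 and 5 of 2010, and replicate 5 was high in 7 of the checks for single animals given below. All of these animals also made the calls. Of the 15 named contigs that were higher, 14 had a lower mean in the old than in the other animals of 2010; for ARG1 the means were 4.44 and 14.2 CPM, and for Ddx17 60.6 and 89.9 CPM. Of the 15 that were lower, 8 had a higher mean in the old animals, and ZEB2 had 2.65 and 2.66 CPM. In the model with an age term, ARG1, CCDC57 and JOS1 were no longer called, with adjusted p by edgeR of 0.138, 0.141 and 0.0859. Age and year cannot be told apart fully at this site, because young animals came from 2010 only, and the term draws on the upstream animals as well.

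Called in the same direction on all libraries, without the pair, with an age term and with both were 3408 contigs that were higher and 2057 that were lower. Of these, 2709 and 362 carried a running number, 595 and 1321 a LOC number, and 19 and 138 a gene name. In 1496 and 697 of them the years also did not overlap. All 30 named contigs of smallest p had the sign of their change in each of the 4 lanes, and all 30 were called in each of the 32 fits without 1 library. Those in which the years did not overlap were 4 of the 15 higher and all 15 of the lower. For these contigs the sign within each lane was fixed by the lack of overlap. All lanes held animals that also made the calls. With library totals alone, all 15 higher names and 11 of the 15 lower ones were called; ppp1r15b, RRAGA, ZN420 and ZN429 were not.

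Upstream, where age classes were alike in both years (3, 4 and 1 against 4, 3 and 1), 1914 contigs differed between the years (3.73%), 405 higher and 1509 lower. That count was 4420 without downstream 2009 replicates 7 and 8, 4141 without lane 2, 3612 by DESeq2, 1059 with age and lane terms and 514 with library totals alone. With single libraries left out it ran from 784 to 3624. It was 842, 784 and 3624 without upstream 2009 replicates 3, 4 and 8, 869, 1204 and 1189 without upstream 2010 replicates 4, 5 and 7, and 3071 without downstream 2009 replicate 8. Of the 30 named contigs, 13 were called there in the same direction, 2 of the higher and 11 of the lower ones; ZEB2 changed by -1.16 and SQRDL by 1.30. The difference between the year effects of the sites, tested as an interaction in the same model, passed in 226 contigs (0.441%). Of these, 225 had a more positive change downstream, and 221 were higher in 2010 downstream. A running number was carried by 176 of them, a LOC number by 38 and a gene name by 6. NHRF1, named for a scaffold protein of membrane transporters, went from 5.53 to 10.7 CPM downstream and from 14.7 to 6.67 CPM upstream, an interaction of 2.09 (edgeR adjusted p of 0.0347). ADHX.4.4, named for an alcohol dehydrogenase that oxidises formaldehyde bound to glutathione, went from 1.55 to 4.78 CPM downstream and from 2.32 to 2.89 CPM upstream (interaction of 1.30, edgeR adjusted p of 0.0345). Ppp1r15b was the only one with a more negative change downstream, and its change upstream was -0.04. The count was 37 with an age term, 1 without lane 2 and 706 without replicates 7 and 8, so that its size rests on the model and the libraries included. Age classes shifted between the years downstream and hardly upstream, so age and site cannot be told apart fully in the interaction.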

How the data were processed

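RNA of 32 mussel kidneys was extracted with an SV Total RNA kit (Promega) and made into TruSeq RNA v2 libraries, per the labels' protocols. The authors deposited raw read counts per contig, as whole numbers, for 51392 contigs. BWA 0.7.12 and SAMtools 1.1 are named in the submitters' processing notes. The tool of assembly, the origin of the names and the handling of reads that match several contigs are not given in the sources used here. All columns were matched to samples by the label of the library.

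Counts were tested in R 4.3.3 with edgeR 4.0.16: filterByExpr (minimum count 10, minimum total 15), TMM factors, a robust quasi-likelihood fit of 4 group means to the 32 libraries, and p-values adjusted by Benjamini-Hochberg over 51264 contigs. The common biological coefficient of variation was 55.3%. A standard error is the change divided by the square root of F. Levels are CPM on TMM-scaled library sizes. Ratios of means add 0.5 CPM. Library summaries were compared with the exact permutation test over all 12870 splits (SciPy 1.17.1, two-sided), whose smallest p is 0.000155 and, for 2 against 7 animals, 0.0556.

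Named contigs were the 15 higher and 15 lower called names of smallest p that reached a mean of 5 CPM in the higher year, 1 contig per name, up to 3 called members of each list, and 4 contigs without a gene name. Further names stand in counts of 5 or fewer, in the interaction, or among markers, and were chosen after their values were seen. Values of some contigs that the rule takes are not reported here. The members and lists were chosen with earlier results of these data known. Lists were described by counts and medians, with no test. Replicates were numbered in the order of the samples. Nothing in the labels says more than that they are separate individuals. The p-values set a difference against the spread between individuals, fitted over the 32 libraries in the main edgeR fit. They do not take in a spread between samplings of one year.

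Alternatives were the fit without 2009 replicates 7 and 8, an age term, both, old animals only with and without that pair, without lane 2, a lane term, age and lane terms, only the downstream libraries, RLE, upper-quartile and no factors, no filter, 1 CPM in 8 libraries, DESeq2 1.42.0, limma-voom (limma 3.58.1), and each library left out in turn. Limma-voom gave each library a fitted quality weight, so libraries did not count equally in it. No pair of libraries held identical values.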

Additional observations from a re-analysis of the deposited data

Results flagged for a closer look

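In 216 groups of 8 animals, the lowest or highest animal was checked for a gap to its neighbour above Dixon's 95% critical value for 8 samples, and 30 flags were found. Chance gives about 1 flag in 20 groups for independent, normally distributed values. Levels in CPM of contigs chosen as called need not be such values, so the number of flags is no test of an excess. Downstream 2009 replicate 7 was high in 9 of them, replicate 8 high in 9 and low in 1, and the old downstream 2010 replicate 5 high in 7. No cause was tested.

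Replicate 7 of 2009 stood apart with 75.9 CPM of ACTC.2.3, 217 CPM of CALM.11.20, 97.1 CPM of CATL1, 9.65 CPM of CLN6, 109 CPM of COX17, 7.20 CPM of MRPS14.2.3, 63.8 CPM of MRPS14.3.3, 30.1 CPM of RT02 and 5.39 CPM of S26A5. Replicate 8 of 2009 did so with 1930 CPM of a 14-3-3 protein contig, 24900 CPM of ACT2, 144 CPM of DDX5.1.2, 21.7 CPM of HS71B, 33.7 CPM of LOC105341999.2.2, 3.63 CPM of NAIP, 154 CPM of PGCB, 3060 CPM of TBAT and 43.5 CPM of slc3a1. It also had the fewest contigs at 1 CPM or more, 37996.

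Among the animals of 2010, replicate 5 stood apart with 5.10 CPM of ACTC.2.3, 69.9 CPM of CALM.18.20, 22.6 CPM of CATL1, 18.6 CPM of NDUFA7, 2.81 CPM of npc2, 11.1 CPM of slc3a1 and 38.96% of counts in numbered contigs. Replicate 1 of 2010 was high for MRPS14.2.3 (2.45 CPM) and ppp1r15b (3.93 CPM), and replicate 6 for FRIS.1.2 (10900 CPM) and for the share of its 100 contigs of highest count (41.96%).

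The year effect differed between the sites, by the interaction test of edgeR with adjusted p over all contigs, for 4 of the contigs described: contig_15576 (1.77 more downstream, p of 0.0169), TRMT44.2.2 (1.75, p of 0.0402), Ddx17 (1.56, p of 0.0347) and ppp1r15b (-0.79, p of 0.0454). These p-values come from the model without an age term, and age classes shifted between the years downstream and hardly upstream. Over all contigs the interaction passed in 226, in 37 with an age term and in 1 without lane 2.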

How the results depend on the processing

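No paired analysis was possible because the labels give the groups no shared replicate numbers. No alternative called a contig in the direction opposite to its first call, and the cause of each change below was not tested. The count of 14225 calls was 6605 without lane 2 (4544 higher, 2061 lower), 8298 with an age term (4507, 3791), 5446 with age and lane terms (3716, 1730), 446 among old animals (373, 73), 3513 among old animals without 2009 replicates 7 and 8 (2175, 1338) and 24469 by limma-voom (12822, 11647). Library size alone gave 13186 higher and 1253 lower. Without the pair 4407 were lower, and 4085 with an age term as well. Leaving out single libraries gave 11631 (without downstream 2010 replicate 8) to 16778 calls (without downstream 2010 replicate 5), 6095 to 7834 of them higher and 5516 to 8944 lower. The other alternatives (RLE, upper quartile, lane term, both filters, only downstream libraries, DESeq2) kept the count within 1.5 times. The interaction count of 226 was the least stable: 706 without the pair, 1 without lane 2, 37 with an age term, 940 with both age term and without the pair, 93 with lane added, 67 with lane and age, 137 by RLE, 1 by library size, 940 by DESeq2, 4070 by limma-voom, and 35 to 840 with single libraries left out.

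Differences between the years in library summaries, 2010 minus 2009, lost their exact permutation call as follows. The share of named contigs was -1.65 points without the pair and -2.49 among old animals, that of ribosomal proteins -0.528 and -0.810, and that of the top 100 contigs -3.22 and -7.43. Among old animals, where 2 against 7 cannot reach the threshold, numbered contigs were 6.95, contigs at 1 CPM 1813.2 and the TMM factor 0.353, and the total count turned to -4.53 M. Within lane 2 the differences were -10.8 (named), 1.23 (LOC), 9.17 (numbered), 0.445 (locus tags), -4.21 (ribosomal), -16.5 (top 100), 3733 contigs at 1 CPM and 0.780 (TMM). Within lane 3 they were -0.371 (named), 0.04 (ribosomal, reversed) and -12.7 M counts, within lane 1 0.07 (top 100, reversed) and 0.173 (TMM), and within lane 4 99.5 M counts.

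List medians turned sign with library size alone for tRNA enzymes (0.16), RNA helicases (0.05), histones (0.23), inhibitors of apoptosis (0.12), carbonic anhydrases (0.27) and solute carriers (0.39). That of cytochrome P450, 0.06, was -0.53 with an age term, -0.57 among old animals and -0.11 without lane 2. ABC transporters turned to -0.29 with an age term, -0.11 with age and without the pair, -0.65 among old animals, -0.37 among old without the pair and -0.14 with age and lane. Among old animals without the pair, histones (0.05), tubulins (0.32) and calmodulins (0.70) turned, as did CALM.18.20 (0.14), CATL1 (0.14), NDUFA7 (0.28), PABP1 (0.03), S26A5 (0.01), npc2 (0.28) and slc3a1 (0.10); MRP4 was -0.01 among old animals and 0.00 without the pair. Depth limits contigs under 1 CPM and the 2 old animals of 2010 limit every value among old animals.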

Other observations

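Among all named contigs 36.7% were lower, with a median of -0.60; the further lists are given beside these values. Of 13 mitochondrial ribosomal proteins 9 were lower and 0 higher (median -1.09), and 4 were lower without 2009 replicates 7 and 8 and 7 with an age term. MRPS14.3.3 had 19.7, 34.0 and 63.8 CPM as lowest, median and highest level in 2009 and 11.9, 14.3 and 21.2 CPM in 2010. Of 11 subunits of respiratory complex I 4 were lower, of 9 contigs of complexes III and IV and cytochrome c 5, and without the pair 1 and 3. The share in complex I, 36.4%, was near that of all named contigs. NDUFA11 changed by -1.24 ± 0.29 (SE, n = 8 per year; edgeR adjusted p of 0.00206), with no overlap of the years, and by -0.93 without the pair. All 4 contigs named for 14-3-3 proteins, which bind phosphorylated proteins, were lower, and 3 without the pair; the one of smallest p went from a median of 375 to 212 CPM with no overlap.

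Of 35 contigs for histones, chromatin and DNA repair 13 were lower and 0 higher (median -0.22, and 0.23 with library totals alone), and 8 were lower without the pair. Their share lower, 37.1%, was near that of all named contigs. The histone variant H33 had 459, 569 and 2075 CPM in 2009 and 172, 257 and 378 CPM in 2010, a change of -1.77 that was -1.10 without the pair. Of 12 chaperones 5 were lower, and 3 without the pair; grpel1, a co-chaperone of the mitochondrial Hsp70, changed by -0.80 ± 0.21 with no overlap. Of 24 calmodulins 6 were lower, of 34 contigs of extracellular matrix and integrins 10, of 9 lysosomal contigs 4 and of 15 solute carriers 2; without the pair the counts were 2, 4, 1 and 0. The shares of calmodulins (25.0%), extracellular matrix (29.4%) and solute carriers (13.3%) were below that of all named contigs. The 0 solute carriers called by edgeR included 1 lower at an unadjusted p under 0.05.

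Correlations of log2 CPM over contigs between single libraries had a median of 0.879 within replicates 1 to 6 of 2009 and of 0.891 within 2010. Between 2010 and replicates 1 to 6 of 2009 the median was 0.846, and between 2010 and the pair 0.674. These values share contigs and depth and carry no test.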
